A study of Mus musculus with 20 samples.

Results

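Thrombospondin 1 (Thbs1) was followed across 20 RNA-seq libraries of bone marrow neutrophils. Its level was high in every untreated library, and it was lower in 9 of the 10 libraries of mice treated with imiquimod (IMQ). It is 1 of the 24421 genes that each count file lists, found by its symbol, and it was chosen by its measured values in these same libraries. Its levels and fold changes are therefore given as a description, without a test, and tests are given only for genes that were listed by their function or position.

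The study asked how the loss of the clock gene Bmal1 in myeloid cells alters a lupus-like disease that IMQ, an agonist of Toll-like receptors 7 and 8, brings about when its cream is put on the skin. Neutrophils were obtained by magnetic negative selection from the marrow of female mice, 8 to 10 weeks old at the start, and 1 poly(A) library was made per mouse. The 4 groups of 5 mice were WT (C57BL/6J) and Bmal1 Mye-/-, each left untreated or given IMQ for 6 weeks. The labels call the latter genotype a Bmal1 myeloid conditional KO. In Bmal1 Mye-/- mice, Bmal1 (Arntl in the files) is floxed and Cre recombinase is driven from Lyz2, a gene that macrophages and monocytes use as well as neutrophils, so the deletion is not limited to neutrophils. The WT mice were purchased and the Bmal1 Mye-/- mice were bred in house, so that genotype and origin cannot be told apart.

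Thrombospondin 1 is a large secreted glycoprotein of the matricellular family, proteins that sit in the matrix and signal to cells rather than build structure. It binds CD36 and CD47 on cell surfaces, several integrins, and the endocytic receptor LRP1 together with calreticulin. It activates latent TGF-beta, slows the growth of blood vessels and bridges dying cells to phagocytes. Platelets store it in their granules, and monocytes, macrophages, fibroblasts and endothelial cells also make it.

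Each library held between 30782166 and 92613500 reads on genes (median 66094896). The genotype labels were checked on Lyz2, which the Cre insertion interrupts. Lyz2 lay between 2470 and 12000 CPM (read counts relative to library size, scaled by TMM factors) in the 10 WT libraries and between 58.8 and 177 CPM in the 10 Bmal1 Mye-/- libraries. Arntl was too low to separate the genotypes, at 0.562 to 1.87 CPM in WT and 0.337 to 1.52 CPM in Bmal1 Mye-/-, and exons outside the deleted part still count for it. The neutrophil genes listed as defining (11 of 12 were in the files, Ly6g was not) summed to 72400 to 158000 CPM in every library. On the first principal component of all genes, IMQ-treated WT replicate 5 scored −37.1, well within the untreated range of −57.0 to −7.63. IMQ-treated Bmal1 Mye-/- replicate 2, at −10.7, also lay in that range, near its upper end, with Thbs1 at 29.0 CPM. The remaining IMQ libraries scored 19.5 to 92.5. Results that rest on IMQ-treated WT replicate 5 are given with and without it.

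Thbs1 (ENSMUSG00000040152.8) lies on the plus strand of chromosome 2 from base 118111876 to base 118127133 in mm10. It spans 15258 bases, and its longest transcript has 22 exons and 5848 bases. A lincRNA on the other strand, Gm29233 (chromosome 2, 118123451 to 118124047), lies within the Thbs1 span and is no row of the count files. The counting was not stated to use strand, so reads from that RNA and from Thbs1 could not be told apart where they overlap exons.

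In untreated WT mice, Thbs1 stood at 1404, 1302, 855, 1463 and 2844 CPM in replicates 1 to 5. In untreated Bmal1 Mye-/- mice it stood at 1362, 1349, 1213, 2659 and 1466 CPM. The Bmal1 Mye-/- range lay within the WT range, with replicate 5 of WT and replicate 4 of Bmal1 Mye-/- well above the rest. In IMQ-treated WT mice the values were 52.5, 28.1, 4.43, 21.4 and 865 CPM. In IMQ-treated Bmal1 Mye-/- mice they were 62.3, 29.0, 21.9, 20.8 and 7.22 CPM. All 5 IMQ-treated Bmal1 Mye-/- libraries lay below all untreated libraries of that genotype, and 4 of the 5 IMQ-treated WT libraries lay below all untreated WT libraries. IMQ-treated WT replicate 5, at 865 CPM, was just above the lowest untreated WT library at 855 CPM.

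**Figure D1:**
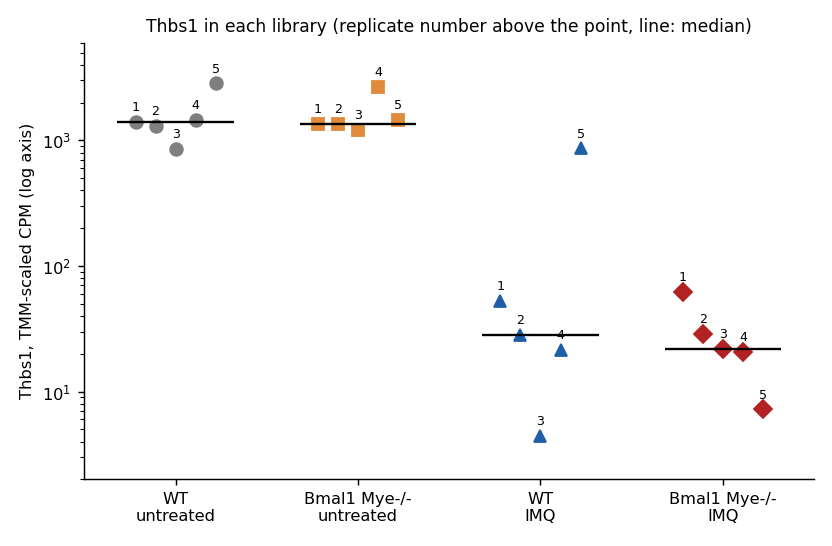
Thbs1 in each library, as TMM-scaled CPM on a log axis, for the 4 groups of 5 mice. Points are libraries with their replicate number, and lines are group medians. The 10 untreated libraries sit between 855 and 2844 CPM, 9 IMQ libraries between 4.43 and 62.3 CPM, and IMQ-treated WT replicate 5 at 865 CPM.

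These levels rest on deep counts. Thbs1 had 36049 to 187645 reads in the untreated libraries, 46529 in IMQ-treated WT replicate 5 and 253 to 4804 in the other IMQ libraries. The lowest share of gene reads was 0.000512% in IMQ-treated WT replicate 3, with an exact 95% interval of 0.000451% to 0.000579% that covers counting error only. On a scale per length of exon, Thbs1 reached 141 to 468 RPKM (reads relative to exon length and library size) in untreated libraries. It ranked 78 to 270 among 23340 genes there, at the level of the abundant transcripts of the cell. In the 9 low IMQ libraries it was at 0.729 to 10.3 RPKM and ranked 3252 to 9313, so the transcript remained detected in all of them. IMQ-treated WT replicate 5 had 142 RPKM and rank 296.

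From highest to lowest by mean log2 CPM, the groups were untreated Bmal1 Mye-/- (10.59 ± 0.45, SD, n = 5), untreated WT (10.51 ± 0.62), WT given IMQ (5.37 ± 2.78) and, lowest, Bmal1 Mye-/- given IMQ (4.50 ± 1.12). The 2 untreated groups differed by less than the spread between mice, and so did the 2 IMQ groups. The step between the untreated and the IMQ groups was larger than either spread. Without replicate 5, IMQ-treated WT was at 4.28 ± 1.51 (n = 4), below IMQ-treated Bmal1 Mye-/-, so the order of the lower pair rests on that library.

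The IMQ medians were 49.95-fold lower in WT and 62.2-fold lower in Bmal1 Mye-/- than the untreated medians. In the model fitted over all genes, the log2 fold change of Thbs1 with IMQ was −3.02 (SE 0.974) in WT and −5.83 (SE 1.11) in Bmal1 Mye-/-. The fit compares group means, so replicate 5 weighs heavily in the WT value: without it the WT estimate was −5.90 (SE 0.708), while the Bmal1 Mye-/- estimate was −5.81 (SE 0.638). Between genotypes, Thbs1 differed by 0.03 (SE 0.902) on the log2 scale without treatment. With IMQ the genotype difference was −2.78 (SE 0.966) over all libraries and 0.10 (SE 0.553) without replicate 5, which turned its direction. The interaction of genotype and IMQ was −2.81 (SE 1.3), and 0.08 (SE 0.757) without that library. In bulk RNA, fewer cells that hold the transcript and less transcript per cell cannot be told apart.

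**Figure D2:**
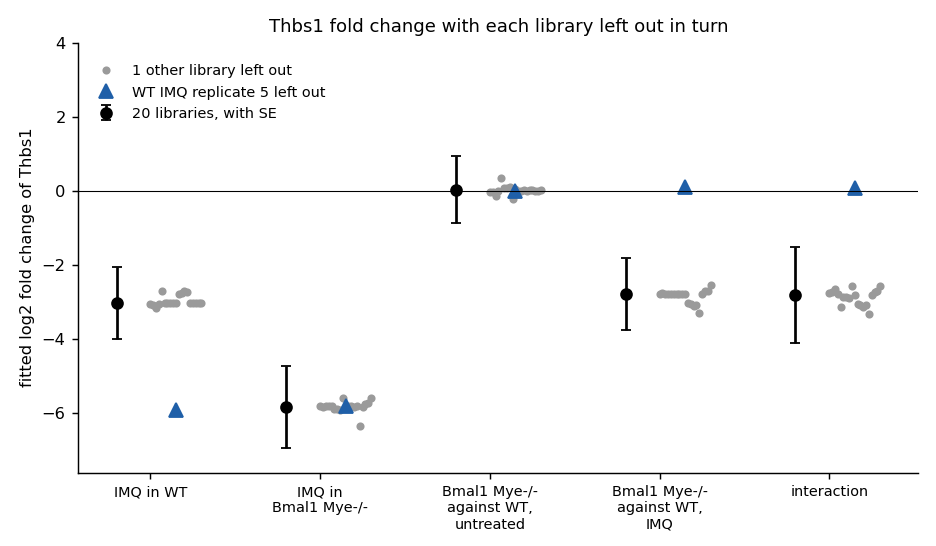
Fitted log2 fold change of Thbs1 in the 5 contrasts. Black points are estimates over 20 libraries with their SE, grey points leave out 1 other library each, and blue triangles leave out IMQ-treated WT replicate 5, which moves the WT estimate from −3.02 to −5.90 and the interaction from −2.81 to 0.08.

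Thbs1 was chosen by this change, so its place among all genes is a description. Of 14030 genes tested, 1 had a lower log2 fold change with IMQ in Bmal1 Mye-/- and 48 had a lower one in WT. Among the 1895 genes with at least 100 CPM in untreated libraries, 0 had a lower one in either genotype. Thbs1 also varied widely within groups. Its SD of log2 CPM among untreated WT mice was exceeded by 20 of 4288 genes with a mean log2 CPM above 5, where the median gene had an SD of 0.121. Among IMQ-treated WT mice 0 of those genes varied more with replicate 5 included, and among IMQ-treated Bmal1 Mye-/- mice 70 did.

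The nearest neighbours of Thbs1 were examined because of their position. Gm13986, a noncoding processed transcript on the minus strand (chromosome 2, 117857291 to 118111202), starts 674 bases upstream of Thbs1 and points away from it. It was a rare transcript, with 4 to 153 reads per library. In untreated mice it lay between 1.29 and 2.27 CPM, and in the 9 low IMQ libraries between 0.0700 and 0.552 CPM. In IMQ-treated WT replicate 5 it was at 1.86 CPM, inside the untreated range, as Thbs1 was. Gm13986 fell with IMQ in Bmal1 Mye-/- (log2 fold change −2.36, SE 0.60, adjusted p = 0.0128, edgeR quasi-likelihood test). In WT its value was −1.70 (SE 0.58, adjusted p = 0.0931), and −3.02 without replicate 5 (adjusted p = 0.000455). It shares no exon with Thbs1, yet the counting was not stated to use strand.

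The next lincRNAs on that side, 4930412B13Rik and Gm13985, reached at most 0.520 and 0.313 CPM. Downstream, Fsip1 (3291 bases from the end of Thbs1) had 5 reads in all 20 libraries together, 1700054M17Rik had 0, and Gpr176, an orphan G protein-coupled receptor, reached at most 0.598 CPM. Of these, 4930412B13Rik, Gm13985 and Gpr176 passed the filter on low counts, and none of the 3 was called with IMQ in either genotype by edgeR or in any alternative. Their lowest unadjusted p over all libraries was 0.0672 (0 were under 0.05), and without IMQ-treated WT replicate 5 the lowest adjusted p was 0.0673, for 4930412B13Rik in WT (−1.96). Thbs1 was thus the only abundant transcript among its 3 annotated neighbours on each side.

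The genes most like Thbs1 were ranked by Pearson's r of log2 CPM over the 20 libraries. The highest were Ces1d (r = 0.977), a carboxylesterase, Abcg3 (0.971), a member of the ABC transporter family, Dalrd3 (0.960), Itga8 (0.956), the integrin alpha 8 subunit, and Trf (0.954), which encodes transferrin. Mpzl2 (0.954), D8Ertd738e (0.949), Astn2 (0.948), Gm13986 (0.948) and Dtd1 (0.947), a D-aminoacyl-tRNA deacylase, followed. All 10 had their 10 untreated libraries above the 9 low IMQ libraries, with IMQ-treated WT replicate 5 above those 9. Ces1d, for example, lay between 21.7 and 29.3 CPM in untreated mice, at 19.6 CPM in replicate 5 and between 0.542 and 3.47 CPM in the other IMQ libraries. Across the 14030 genes tested, 288 had all 10 untreated libraries above these 9, and 262 had all 10 below. The points form 2 clusters, so r over 20 libraries mostly reflects the split between them, and all the points share library, depth and scaling.

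The mirror image was led by Cd38 (r = −0.960), an ectoenzyme that consumes NAD and marks activated immune cells. Cd38 was at 1.05 to 2.07 CPM in untreated mice and at 1.91 CPM in IMQ-treated WT replicate 5. Depdc1b (−0.953), Gnb5 (−0.953), a G protein beta subunit, 2500002B13Rik (−0.951) and Prelid1 (−0.951), a carrier of mitochondrial phospholipids, were next. All 5 had every untreated library below the 9 low IMQ libraries, and replicate 5 below them too.

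After the mean of each group was subtracted, the 10 highest were Ces1d (0.885), Abcg3 (0.885), Ptms (0.874), Rarg (0.874), Ids (0.869), Gm13986 (0.855), Zfp467 (0.854), Inpp4b (0.853), Nnt (0.846) and 9030617O03Rik (0.843). Of the first 10, 3 remained among these (Ces1d, Abcg3 and Gm13986), and the deviation of replicate 5 from its group entered each of these values. Within the 10 untreated libraries, 0 of the first 10 were again among the 10 most alike. In the 9 low IMQ libraries, Fos had the highest r with Thbs1 (0.961), a gene that was singled out after its values were seen. Over the 10 untreated libraries the r of Fos with Thbs1 was 0.473. Fos, an immediate early transcription factor subunit, stood at 145 CPM in IMQ-treated WT replicate 3 and at 204 CPM in IMQ-treated Bmal1 Mye-/- replicate 5, the libraries in which Thbs1 was lowest. It was at 507 to 1150 CPM in the other IMQ libraries. Those same libraries had the highest first principal component scores, 92.5 and 79.6.

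**Figure D3:**
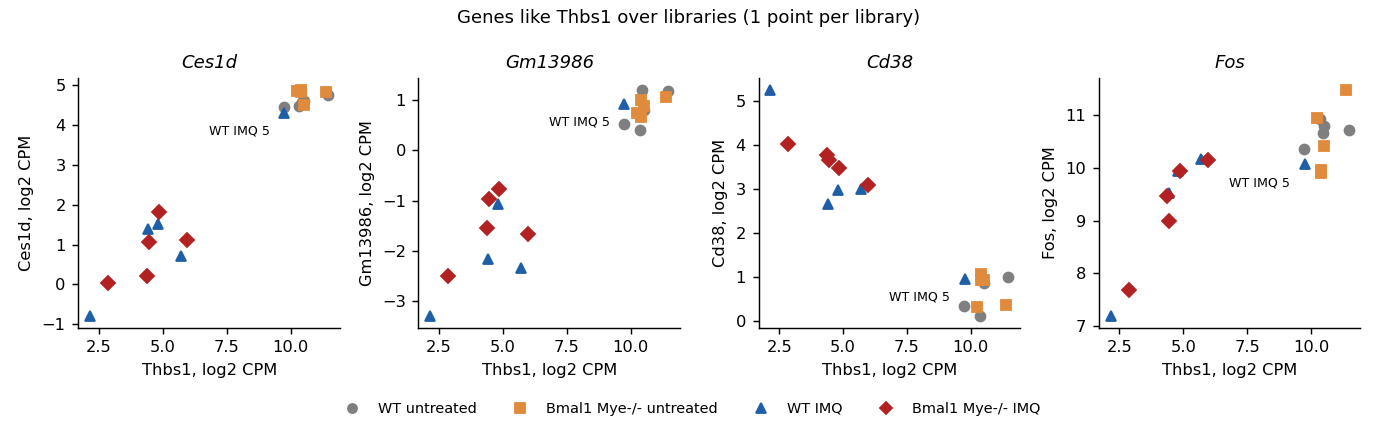
Log2 CPM of Ces1d, Gm13986, Cd38 and Fos against log2 CPM of Thbs1, 1 point per library, coloured by group. Ces1d, Gm13986 and Cd38 form 2 clusters with IMQ-treated WT replicate 5 beside the untreated libraries, while Fos grades within the 9 low IMQ libraries (r = 0.961).

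Across all genes, edgeR called 2.34% of those tested higher and 1.6% lower with IMQ in WT (adjusted p under 0.05). For Bmal1 Mye-/- these shares were 14.4% higher and 9.04% lower. For Bmal1 Mye-/- against WT it called 0.107% higher and 0.0998% lower without treatment, and 0.185% higher and 0.107% lower with IMQ. The interaction had 0% called in either direction, with 394 genes higher and 327 lower at an unadjusted p under 0.05 and 0 called by DESeq2. Without IMQ-treated WT replicate 5, the IMQ calls in WT rose to 7.55% higher and 6.38% lower. Of the calls in WT, 59.4% were higher, against 49.5% with scaling by library totals and 27.1% by the analysis of variance on log2 CPM. Between IMQ-treated genotypes 63.4% were higher, against 74.5% with library totals. The gene lists that follow were read against these shares. The contrasts that share a group of mice are not independent of each other.

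The other thrombospondins were rare in all groups. Thbs2, Thbs3 and Comp (thrombospondin 5) were at or below 0.186 RPKM on average in untreated and in IMQ libraries, against 262 RPKM for Thbs1 in untreated libraries. None of these 3 was called in an IMQ contrast. Thbs4, which is best known from muscle, tendon and nerve, rose with IMQ in both genotypes from very few reads. Its values were 0.459, 0.142, 0.220, 0.0910 and 0.182 CPM in untreated WT, against 0.936, 1.11, 2.29, 0.546 and 0.316 CPM in IMQ-treated WT. Among Bmal1 Mye-/- mice it went from 0.0749 to 0.379 CPM in untreated mice to 0.312 to 1.22 CPM with IMQ, and the groups overlapped in both genotypes. The log2 fold changes were 2.24 (SE 0.56, adjusted p = 0.0336) in WT and 1.60 (SE 0.56, adjusted p = 0.0442) in Bmal1 Mye-/-. These calls were kept in 17 and 14 of 28 alternatives, so they were near the threshold.

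Of the receptors and binding partners of thrombospondin 1, 17 were tested, and 1 was called in WT and 8 in Bmal1 Mye-/- with IMQ (4 higher, 4 lower). Over all genes the shares were 2.34% higher and 1.6% lower in WT, and 14.4% and 9.04% in Bmal1 Mye-/-. The 8 of 17 lay above the share in that genotype, which no set test weighed. Without IMQ-treated WT replicate 5, Cd47 was called higher in WT, and Itga2b, Sdc1 and Vwf lower. Cd36, the scavenger receptor through which the protein acts on vessels, was rare, at 0.707 to 5.38 CPM in untreated and 1.01 to 5.76 CPM in IMQ libraries. Its log2 fold change was 0.96 (SE 0.55, adjusted p = 0.323) in WT and −0.20 (SE 0.54, adjusted p = 0.808) in Bmal1 Mye-/-. Cd47, the ubiquitous receptor that also restrains phagocytosis, was abundant and slightly higher with IMQ. It lay between 157 and 194 CPM in untreated libraries and between 180 and 292 CPM in IMQ libraries. Cd47 rose in Bmal1 Mye-/- by 0.41 on the log2 scale (SE 0.11, adjusted p = 0.0168), and its value in WT was 0.39 (SE 0.11, adjusted p = 0.0561). Without IMQ-treated WT replicate 5, Cd47 passed in WT too (0.44, adjusted p = 0.0185).

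Sirpa, the receptor that binds CD47 on phagocytes, fell in Bmal1 Mye-/- (−0.65, SE 0.20, adjusted p = 0.0284). So did Itgb3 (−0.61, adjusted p = 0.0385), the beta 3 integrin subunit, and Cacna2d1 (−1.78, adjusted p = 0.0275), a calcium channel subunit that binds thrombospondins and had at most 56 reads. Itgb1, the beta 1 integrin subunit, rose (0.58, SE 0.17, adjusted p = 0.0227). Lrp1, which takes up thrombospondin 1, rose by 1.82 (SE 0.55, adjusted p = 0.0252), and Fn1, the matrix protein fibronectin, by 1.76 (SE 0.55, adjusted p = 0.0301). Both were highest in replicate 1 of IMQ-treated Bmal1 Mye-/-, at 332 and 1390 CPM. Neither passed without that replicate, nor with the replicate number as a block (adjusted p = 0.0652 and 0.0796). Over 29 alternatives, Cd47 was called in 29 in Bmal1 Mye-/-, Itgb1 in 25, Sirpa in 23 and Itgb3 in 13.

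Sdc1, a heparan sulphate proteoglycan, was the receptor that fell in both genotypes. It was at 6.95, 7.48, 25.9, 8.78 and 8.38 CPM in untreated WT and at 1.23, 1.81, 1.15, 2.45 and 5.95 CPM in IMQ-treated WT, without overlap. The highest of the IMQ values was again that of replicate 5. Among Bmal1 Mye-/- mice it went from 4.71 to 15.4 CPM in untreated mice to 1.65 to 3.5 CPM with IMQ. The log2 fold changes were −2.19 (SE 0.49, adjusted p = 0.0226) and −1.89 (SE 0.49, adjusted p = 0.0133). With the replicate block Sdc1 did not pass in WT (adjusted p = 0.0568).

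Latent TGF-beta is a target of thrombospondin 1. Tgfb1, the ligand gene, was at 114 to 141 CPM in untreated and 114 to 194 CPM in IMQ libraries, with log2 fold changes of 0.11 (SE 0.11, adjusted p = 0.614) in WT and 0.07 (SE 0.11, adjusted p = 0.663) in Bmal1 Mye-/-. Of 21 genes of the pathway tested, 0 were called in WT by edgeR (6 at an unadjusted p under 0.05, 2 by DESeq2) and 2 fell in Bmal1 Mye-/-. Without IMQ-treated WT replicate 5, Tgif1, a repressor of the pathway, was called lower in WT (−1.18, adjusted p = 0.021). Tgfbr2, the type II receptor, fell by 0.90 on the log2 scale (SE 0.21, adjusted p = 0.00825), and Smad3, a signal transducer of the pathway, by 0.95 (SE 0.24, adjusted p = 0.0117). The median log2 fold change of the list was −0.105 in WT and −0.265 in Bmal1 Mye-/-, beside 0.03 and 0.02 over all genes.

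**Figure D4:**
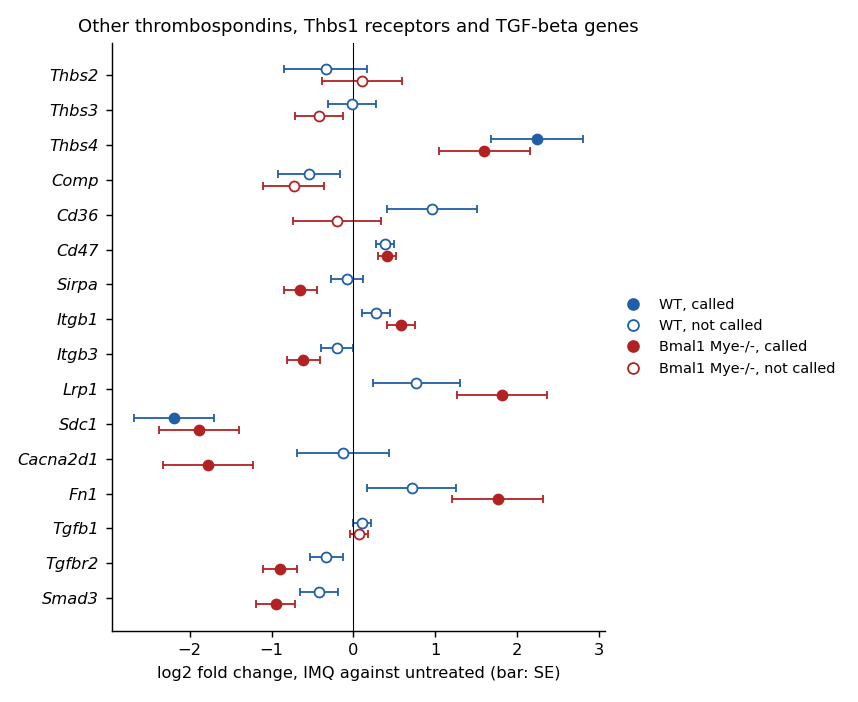
Log2 fold change with IMQ (bars: SE) of the other thrombospondins, of Thbs1 receptors and of TGF-beta genes, in WT (blue) and Bmal1 Mye-/- (red). Filled points passed an adjusted p of 0.05. Thbs4 and Sdc1 passed in both genotypes, at 2.24 and −2.19 in WT, though Sdc1 did not pass in WT with the replicate block.

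Taking the other thrombospondins, the receptors and the TGF-beta genes as 1 group of 42 tested genes, edgeR called 2 in WT (1 higher, 1 lower) with IMQ. In Bmal1 Mye-/- it called 11 (5 higher, 6 lower). Over all genes the shares were 2.34% higher and 1.6% lower in WT, and 14.4% and 9.04% in Bmal1 Mye-/-. Without replicate 5 the WT count was 6, beside 7.55% higher and 6.38% lower over all genes. The pooled counts were near these shares and were not read as a result about the 42 genes. The 11 in Bmal1 Mye-/- were 8 of 17 receptors and binding partners, 1 of 4 other thrombospondins and 2 of 21 TGF-beta genes. Between genotypes edgeR called 0 of the 42 without treatment (2 at an unadjusted p under 0.05). With IMQ it called 0 (8 at an unadjusted p under 0.05), and DESeq2 called 0 in both comparisons. Of all 14030 genes, 223 were higher and 84 lower at an unadjusted p under 0.05 without treatment, and 1554 and 1234 with IMQ. For the interaction, 0 were called, with 1 at an unadjusted p under 0.05 and 0 by DESeq2.

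Other matricellular and matrix genes moved in both directions. Of 13 tested, 3 rose in WT, and 4 rose and 3 fell in Bmal1 Mye-/-. Over all genes 2.34% were called higher in WT, and 14.4% higher and 9.04% lower in Bmal1 Mye-/-. Vcan, the proteoglycan versican, rose furthest, from 1.47 to 5.95 CPM in the 10 untreated libraries to 6.32 to 136 CPM in the 10 IMQ libraries, with no overlap. Its log2 fold changes were 2.43 (SE 0.57, adjusted p = 0.0275) in WT and 3.57 (SE 0.60, adjusted p = 0.0046) in Bmal1 Mye-/-. Ecm1, a secreted matrix protein, rose by 2.20 (SE 0.43, adjusted p = 0.0150) and 1.54 (SE 0.42, adjusted p = 0.0176). Ecm1 kept an untreated level in IMQ-treated WT replicate 5, at 4.78 CPM against 11.1 to 52.0 CPM in the other 4. Lgals3, or galectin 3, rose in WT (0.59, SE 0.14, adjusted p = 0.0259), and without replicate 5 of WT it passed in Bmal1 Mye-/- too (0.40, adjusted p = 0.034).

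In Bmal1 Mye-/-, Spp1 (osteopontin) rose by 1.33 (adjusted p = 0.0201, and 0.0508 with the replicate block), and Tnc (tenascin C), Sparc and Wisp1 fell by 1.97, 2.28 and 2.49 on the log2 scale (adjusted p = 0.0168, 0.0267 and 0.0135). Without IMQ-treated WT replicate 5, Spp1, Tnc and Sparc passed in WT as well. With the replicate block Fbln1, a fibulin, was called lower in Bmal1 Mye-/- (adjusted p = 0.0496). Thbs1 was the matricellular gene with the most reads per length in untreated libraries after Lgals3, at 262 against 364 RPKM. The others reached at most 15.2 RPKM, apart from Wisp1, for which no length was matched.

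Among proteases and inhibitors that act on thrombospondin 1, 13 were tested. Elane and Ctsg encode neutrophil elastase and cathepsin G, granule enzymes that cleave it and that are transcribed in early neutrophil precursors. Elane ranged from 42.8 to 270 CPM in untreated and from 19.3 to 345 CPM in IMQ libraries. Its log2 fold change was −0.87 (SE 0.54, adjusted p = 0.357) in WT and 0.31 (SE 0.53, adjusted p = 0.692) in Bmal1 Mye-/-, and that of Ctsg −0.45 (SE 0.54, adjusted p = 0.674) and 1.04 (SE 0.55, adjusted p = 0.161). Mmp2, a gelatinase, and Ctsd, the lysosomal protease cathepsin D, fell in Bmal1 Mye-/- (−1.03, adjusted p = 0.0111, and −0.74, adjusted p = 0.0304). In WT edgeR called 0 of the 13, with 0 at an unadjusted p under 0.05 and 0 by DESeq2.

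Thrombospondin 1 opposes the growth of vessels, and Vegfa, the main vascular growth factor, rose in Bmal1 Mye-/- from 50.4 to 57.3 CPM in untreated mice to 57.1 to 101 CPM with IMQ (log2 fold change 0.42, SE 0.13, adjusted p = 0.0283). It was the 1 angiogenic gene called of 14 in that genotype over all libraries without a block. With the replicate block, Angpt1, a ligand of the endothelial receptor TEK, and Hif1a, the hypoxia-induced factor, were called lower as well (adjusted p = 0.0387 and 0.0452), and Angpt1 also passed there without IMQ-treated WT replicate 5 (adjusted p = 0.0285). In WT 0 of 14 were called by edgeR (4 at an unadjusted p under 0.05, 2 by DESeq2), and Vegfa had 0.16 (SE 0.13, adjusted p = 0.492). Without replicate 5, 3 of the 14 were called lower in WT, namely Angpt1 (−2.55, adjusted p = 0.00694), Nrp2 (−1.23, adjusted p = 0.04) and Vegfc (−2.04, adjusted p = 0.0303).

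Thbs1 is known to be induced quickly by serum through its SRF and immediate early response, so that class was listed. Over all genes, 9.04% were called lower and 14.4% higher with IMQ in Bmal1 Mye-/-. Of 25 genes of the class tested, 7 fell with IMQ in Bmal1 Mye-/- and 0 rose. They were Btg2 (−1.35, SE 0.29, adjusted p = 0.00686), an antiproliferative gene, Egr1 (−2.29, SE 0.51, adjusted p = 0.00775) and Egr2 (−2.03, adjusted p = 0.0179), zinc finger transcription factors, Dusp2 (−1.71, adjusted p = 0.0188), a phosphatase, Junb (−1.07, adjusted p = 0.0388) and Fosl2 (−0.88, adjusted p = 0.0402), subunits of AP-1, and Ier5 (−1.01, adjusted p = 0.0397, and 0.0608 with the replicate block). Fos itself had −1.20 (SE 0.46, adjusted p = 0.0614). In WT edgeR called 0 of the 25 (7 at an unadjusted p under 0.05, 2 by DESeq2), and Dusp2 passed without replicate 5 (−1.65, adjusted p = 0.0427). The median log2 fold change of the list was −0.24 in WT and −0.70 in Bmal1 Mye-/-, beside 0.03 and 0.02 over all genes. Actb, Actg1, Vcl and Srf, which are also read by SRF, were not called. The part of this response in the Thbs1 level was not tested.

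Clock genes and interferon genes were listed because the study removed a clock gene and gave an agonist of Toll-like receptors. Of 18 clock genes, Dbp, a clock-driven transcription factor, fell in WT (−1.01, SE 0.20, adjusted p = 0.0164), and Per2, a repressor of the clock, fell in Bmal1 Mye-/- (−0.59, SE 0.21, adjusted p = 0.0488, and 0.0530 with the replicate block). Without IMQ-treated WT replicate 5, Per2 did not pass (adjusted p = 0.0584), and the clock genes Bhlhe41 and Per3 were called lower in WT beside Dbp (adjusted p = 0.0069 and 0.0334). Of 12 type I interferon response genes, edgeR called 0 with IMQ in either genotype, with 1 at an unadjusted p under 0.05 in each and 0 by DESeq2. Their summed level was 5660 CPM in IMQ-treated WT replicate 1 and 1060 to 1400 CPM in the other 4, against 747 to 1260 CPM in untreated WT. It was 6290 CPM in IMQ-treated Bmal1 Mye-/- replicate 4 and 272 to 732 CPM in the other 4, against 859 to 1410 CPM in untreated mice of that genotype. The positive fitted log2 fold changes of all 12 (medians 1.14 and 0.84) thus came with 1 high library in each group. Over all lists of function together, 0 of 135 genes were called between genotypes without treatment (8 at an unadjusted p under 0.05, 0 by DESeq2) and 0 with IMQ (19 and 2).

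Negative selection leaves other marrow cells behind, and several of them make Thbs1, so their markers were set beside it. Of 14 platelet and megakaryocyte genes, all were detected and 13 had a negative log2 fold change with IMQ in each genotype. In WT 2 fell (Gp5 and Treml1), or 11 without replicate 5, and in Bmal1 Mye-/- 3 fell (Gp1ba, Clec1b and Itgb3). Over all genes 1.6% were called lower in WT, 6.38% without replicate 5, and 9.04% in Bmal1 Mye-/-. The 14 genes summed to 157 to 299 CPM in untreated libraries, 90.0 to 216 CPM in IMQ-treated WT and 97.8 to 158 CPM in IMQ-treated Bmal1 Mye-/-. In untreated mice 133 to 153 CPM of the sum on average was Itgb3. Pf4 and Ppbp, chemokines of platelet granules, went from means of 8.69 and 18.1 CPM to 2.01 and 2.20 CPM in WT, and from 10.5 and 24.2 CPM to 3.84 and 5.53 CPM in Bmal1 Mye-/- (adjusted p = 0.0551 and 0.0717, then 0.0758 and 0.0905). With the replicate block Pf4 passed in Bmal1 Mye-/- (adjusted p = 0.0392). Itga2b and Gp9 had means of 11.4 and 2.79 CPM in untreated WT and 4.68 and 1.18 CPM with IMQ. Without IMQ-treated WT replicate 5, Pf4 (−2.55, adjusted p = 0.0155) and Ppbp (−4.48, adjusted p = 0.00705) were called lower in WT. So were Gp9 (−1.53, adjusted p = 0.0164) and Itga2b (−1.38, adjusted p = 0.0497). Per length, Pf4 and Ppbp stood at 13.3 and 19.5 RPKM in untreated libraries, where Thbs1 stood at 262 RPKM.

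Monocyte genes (10 of 10 detected) summed to 802 to 1050 CPM in untreated libraries, 1020 to 1640 CPM in IMQ-treated WT and 666 to 2600 CPM in IMQ-treated Bmal1 Mye-/-. In the latter genotype 5 of 10 rose with IMQ (Ccr2, F13a1, Ms4a4c, Klf4 and Irf8), beside 14.4% of all genes. Klf4 and Irf8 did not pass with the replicate block (adjusted p = 0.122 and 0.104). The sum of 2600 CPM was that of replicate 1, and the other libraries of that group lay at 666 to 1340 CPM. In WT 0 were called by edgeR (2 at an unadjusted p under 0.05, 0 by DESeq2), and Ly6c2 was called higher without replicate 5. Csf1r, the receptor that defines the monocyte line, had means of 177 and 203 CPM in untreated WT and Bmal1 Mye-/- and of 104 and 99.5 CPM with IMQ (adjusted p = 0.441 and 0.167). Macrophage genes (14 of 14 detected) summed to 461 to 637 CPM in untreated and 362 to 690 CPM in IMQ libraries, and Adgre1, which encodes F4/80, had means of 29.8 and 36.3 CPM and then 18.7 and 20 CPM (adjusted p = 0.509 and 0.247). Of the macrophage genes, Hmox1 was called in WT (higher), and Axl (higher) and Slc40a1 (lower) in Bmal1 Mye-/-, where Axl did not pass with the replicate block (adjusted p = 0.0717). Without replicate 5 of WT, Axl and C1qb were called higher in WT too. In IMQ-treated Bmal1 Mye-/- replicate 1, Csf1r (217 CPM), Adgre1 (44.4 CPM) and Pf4 (7.65 CPM) were within or just above their untreated ranges of 154 to 223, 23.8 to 43.0 and 3.74 to 20.2 CPM. Their list sums differed there. The monocyte sum, 2600 CPM, was above its untreated range. The macrophage sum (362 CPM) and the platelet and megakaryocyte sum (153 CPM) were below theirs. Thbs1 was at 62.3 CPM in that library.

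Stromal and endothelial genes summed to 212 to 1000 CPM in untreated libraries, 38.2 to 218 CPM in IMQ-treated WT and 57.6 to 447 CPM in IMQ-treated Bmal1 Mye-/-. Of 10 tested, 2 fell with IMQ in WT (Cxcl12 and Lepr) and 4 in Bmal1 Mye-/- (Col1a2, Lepr, Cxcl12 and Lum). Over all genes 1.6% were called lower in WT and 9.04% in Bmal1 Mye-/-. Col1a2 and Lum did not pass with the replicate block in the latter (adjusted p = 0.0691 and 0.0826), whereas Col3a1 was called lower with it (adjusted p = 0.0463). Without IMQ-treated WT replicate 5, Col1a1 was called lower in both genotypes (adjusted p = 0.0139 in WT and 0.0364 in Bmal1 Mye-/-), Col1a2 in WT too (adjusted p = 0.0111), and Lum did not pass in Bmal1 Mye-/- (adjusted p = 0.0507). Col1a1 and Col1a2, the chains of type I collagen, had the highest levels, with means of 111 and 115 CPM in untreated WT and 18.2 and 17.6 CPM with IMQ. Cdh5, the defining gene of endothelium, was at 0 in 2 libraries and at most 0.506 CPM. In IMQ-treated Bmal1 Mye-/- replicate 3 the sum was 447 CPM, inside the untreated range, while Thbs1 was at 21.9 CPM. IMQ-treated WT replicate 5 had the highest stromal sum of its group, 218 CPM, also inside the untreated range, and its Thbs1 was at 865 CPM. The sums of the other IMQ libraries, 38.2 to 150 CPM, lay below that range. The part of these cell types in the Thbs1 change was not tested.

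**Figure D5:**
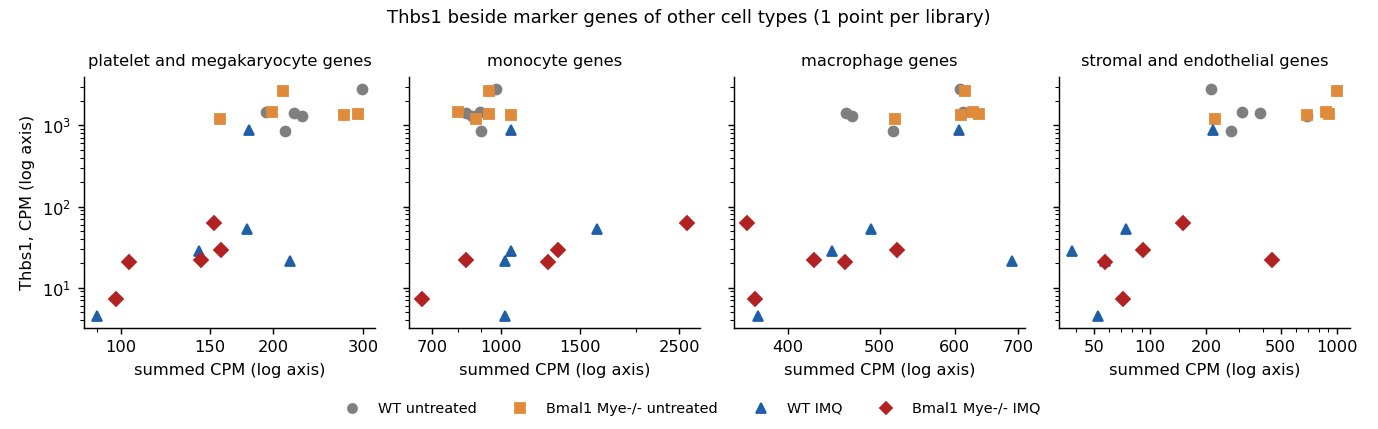
Thbs1 CPM against the summed CPM of platelet and megakaryocyte, monocyte, macrophage, and stromal and endothelial marker genes, both on log axes, 1 point per library. Untreated libraries (circles and squares) lie at 855 to 2844 CPM of Thbs1 at all sums, and the sums of untreated and IMQ libraries overlap in part for every list. For the stromal and endothelial list, only IMQ-treated WT replicate 5 (218 CPM) and IMQ-treated Bmal1 Mye-/- replicate 3 (447 CPM) reached the untreated range of 212 to 1000 CPM.

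Neutrophil stage was read in the same way. Late neutrophil genes summed to 27400 to 35400 CPM in untreated libraries, 9660 to 34600 CPM in IMQ-treated WT and 6420 to 26200 CPM in IMQ-treated Bmal1 Mye-/-. In Bmal1 Mye-/- 4 of 14 fell (Csf3r, Il1b, Ccl6 and Cxcr4), beside 9.04% of all genes. Stfa2l1 rose there (adjusted p = 0.0456, and 0.0863 with the replicate block), and in WT Stfa2l1 alone was called. Early neutrophil genes summed to 4030 to 6720 CPM in untreated and 3400 to 10100 CPM in IMQ libraries, with 0 of 12 called in WT (1 at an unadjusted p under 0.05, 0 by DESeq2) and 0 in Bmal1 Mye-/- (5 and 2). With the replicate block 3 of them were called higher in Bmal1 Mye-/-, namely Ms4a3, Fcnb and Gfi1 (adjusted p = 0.0288, 0.0313 and 0.0409), and Gfi1 also passed without IMQ-treated WT replicate 5 (adjusted p = 0.0289). The lowest late sums with IMQ, 9660 and 6420 CPM, belonged to WT replicate 3 and to Bmal1 Mye-/- replicate 1. Erythroid genes, and eosinophil, basophil and mast cell genes, summed to at most 694 and 210 CPM in any library, and 4 of the 9 erythroid genes had 0 reads in all of them. Of the others 1 and 2 were called in WT (Alas2, Prg2 and Prg3) and 0 and 2 in Bmal1 Mye-/- with IMQ (Siglecf and Ms4a2). For the 0 erythroid genes in Bmal1 Mye-/-, 2 had an unadjusted p under 0.05 and DESeq2 called 1. Ccr3 and Siglecf were called lower in WT without replicate 5, and Ccr3 in Bmal1 Mye-/- with the replicate block. Between IMQ-treated genotypes the eosinophil genes Epx, Prg2 and Prg3 were called higher in Bmal1 Mye-/-, and 1 of them without WT replicate 5. The part of neutrophil stage in the Thbs1 level was not tested.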

How the data were processed

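Bone marrow neutrophil RNA of 20 mice was analysed from the count files that the authors deposited, which hold raw read counts per gene and library. The submitters' processing notes name bcl2fastq, STAR (2.7.8a) and HTSeq (2.0.1), whereas the study's methods name TopHat, Partek and mm10. The annotation and the strand setting are not given in the sources used here. Libraries were sequenced on 2 kinds of instrument, and which library ran on which is not given, so no batch could be set. A joined table of the series held the same counts and was not used. Rows without a feature held 51.9 to 57.8% of the counts and were left out.

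Counts were analysed with edgeR (4.0.16, R 4.3.3): filterByExpr kept 14030 of 24421 genes, TMM factors scaled the libraries, and the quasi-likelihood test was run over all 4 groups with Benjamini-Hochberg adjustment and a threshold of 0.05. An analysis of variance on log2(CPM + 0.1) was an alternative, modelled on the study's, which used log2 RPKM with an offset of 0.1. Other alternatives were DESeq2 (1.42.0), other scalings and filters, the 2 groups alone, counts thinned to 30782166 reads, a replicate block and each library left out. RPKM used exon lengths and positions from GENCODE vM21, matched by symbol (23340 genes). The edgeR fit was tested on simulated counts. Samples of a group were mice, 1 library each. Replicate numbers may pair the untreated and IMQ groups, which the labels do not state. The deviations of all 5 same-numbered pairs had a positive r in Bmal1 Mye-/- (0.128 to 0.426) and in WT (0.0728 to 0.384). Pairs of unlike numbers were not compared, so these values cannot show a pairing, and the main fit used none. The replicate block fitted a shared effect per number over all 4 groups. It thus also tied WT to Bmal1 Mye-/- mice, whose same-numbered r went down to −0.441 untreated and −0.497 with IMQ. The members and lists were chosen with earlier results of these data known. Genes were named by rule: those called in a list, up to 6 of smallest p, a few receptors, thrombospondins and proteases whatever their values, the genes most and least like Thbs1, the defining or most abundant markers, and 3 neighbours on each side. Results of 1 marker list are not reported here.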

Additional observations from a re-analysis of the deposited data

Results flagged for a closer look

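A library was singled out where its gap to the nearest other library of its group exceeded Dixon's 95% critical value (0.71 for 5 libraries). Of 52 groups examined, 9 met this. The rule only singled out libraries and was not read as a test. The groups share libraries and genes, and Thbs1 was chosen by its values, so no chance rate applies. IMQ-treated WT replicate 5 was the high library of its group for Thbs1 (865 CPM), for Gm13986 (1.86 CPM) and for the summed stromal and endothelial genes (218 CPM). Thbs1 was also high in untreated Bmal1 Mye-/- replicate 4 (2660 CPM), where Fos was the highest of all libraries (2870 CPM). The highest Thbs1 level was that of untreated WT replicate 5 (2844 CPM), and over the 10 untreated libraries the r of Fos with Thbs1 was 0.473.

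The other libraries singled out were these. Cd36 was at 5.76 CPM in IMQ-treated Bmal1 Mye-/- replicate 5, against 1.01 to 1.95 CPM in the other 4. Cd47 was at 161 CPM in untreated Bmal1 Mye-/- replicate 5, against 177 to 180 CPM. The monocyte sum was 1640 CPM in IMQ-treated WT replicate 1, and the macrophage sum was 519 CPM in untreated Bmal1 Mye-/- replicate 3. The stromal and endothelial sum was 447 CPM in IMQ-treated Bmal1 Mye-/- replicate 3.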

How the results depend on the processing

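The lower Thbs1 level with IMQ kept its direction in both genotypes under all alternatives run. With each library left out, its log2 fold change was −5.90 to −2.69 in WT, −6.34 to −5.58 in Bmal1 Mye-/-, −0.22 to 0.34 between untreated genotypes, −3.30 to 0.10 between IMQ-treated genotypes and −3.32 to 0.08 for the interaction. The analysis of variance gave −5.19 in WT and −0.77 for the interaction. With the replicate block, Thbs1 had −4.39 in WT, −5.76 in Bmal1 Mye-/- and −1.04 between IMQ-treated genotypes. Alas2, Cxcl12, Hmox1, Lepr, Lgals3, Prg2, Sdc1 and Stfa2l1 did not pass with that block in WT (adjusted p = 0.0548 to 0.0745). Angpt1 was called lower in WT with it (adjusted p = 0.0499), and Epx did not pass between IMQ-treated genotypes (adjusted p = 0.106). Replicate numbers were not read as pairs in either genotype, but the block tied same-numbered libraries. Genes called with IMQ in WT numbered 554, and 326 without the filter on low counts, 190 with the block, 186 with 2 groups alone and 1480 by DESeq2. They ranged from 48 (without untreated WT replicate 2) to 1989 (without IMQ-treated WT replicate 5). In Bmal1 Mye-/- 3292 became 1612 to 4499, and between untreated genotypes 29 became 59 with 2 groups alone. Between IMQ-treated genotypes 41 became 16 with 2 groups alone, 311 by DESeq2 and 20 to 3129 (without IMQ-treated WT replicate 3). The interaction had 0 to 1. With scaling by library totals the median log2 fold change of all genes was 0.155 for IMQ in Bmal1 Mye-/- (0.02 with TMM) and 0.229 between IMQ-treated genotypes (0.03 with TMM). The 2 partner genes called in WT became 1 with library totals, the strict filter, the block, the analysis of variance and thinning, 0 with 2 groups alone and 7 by DESeq2, and 0 to 7 with a library left out. In Bmal1 Mye-/- 11 became 4 to 13. Between IMQ-treated genotypes 0 became 7 without WT replicate 3. Of the 10 genes most like Thbs1, Spearman's rho kept 1, subtracted group means 3, untreated libraries 0 and IMQ libraries 3. In alternatives added after seeing the data, 0 remained with group means subtracted and without IMQ-treated WT replicate 5, and 6 without the 5 IMQ-treated WT libraries. With a library left out 6 to 10 remained. The cause was not tested in any of these.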
